A study of Mus musculus with 16 samples.

Results

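The 50 genes described here act in the G2 and M phases of the cell cycle. They were taken as a list of symbols that was drawn up with earlier results of these data known, and all 50 were found among the 24970 genes of a liver RNA-seq count table. The study used 16 mice in 4 groups of 4. Vehicle or TCPOBOP was given to wild-type mice of the strain C57BL/6 Ntac and to humanized PXR-CAR-CYP3A4/3A7 mice. TCPOBOP activates CAR, the constitutive androstane receptor, of the mouse. The vehicle was corn oil with 2% DMSO, and the dose of 3 mg/kg was given in 2 administrations with 24 h between them, within a treatment of 48 h. Whole-liver poly(A) RNA was sequenced, so fewer cells that express a gene and less of its RNA per cell cannot be told apart. The labels do not state the sex, the age or how the humanized alleles were built.

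Most hepatocytes of an adult liver are out of the cell cycle, and many are polyploid because a nuclear division was not followed by cell division. When a cell does divide, cyclin A and cyclin B activate the kinase CDK1, the spindle checkpoint holds back the anaphase promoting complex until all kinetochores are attached, and that complex then frees separase to release the sister chromatids. TCPOBOP is known as a liver mitogen in mice. Many late cell-cycle genes are transcribed through a cell cycle genes homology region (CHR), which binds the MuvB complex together with B-MYB or FOXM1, and through CCAAT boxes, which bind NF-Y.

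RefSeq's promoter table (assembly GRCm38.p6) held a window from 250 bases before to 50 bases after the start for 39 of the 50 genes. The CHR was searched as TTTGAA and the CCAAT box as CCAAT, each on both strands, so that TTCAAA and ATTGG also count. Neighbouring matches can share bases, as a CHR and a CCAAT match of Cdca8 share 1 base and a pair of CCAAT matches of Ube2c upstream of the stretch shown overlap, and each was counted. A CHR match lay in 29 of the 39 windows (74.4%), against 18.1% of all 27025 promoters in the table and 12.2% of the 10226 promoters of genes tested here. A CCAAT match also lay in 29 (74.4%), against 37.9% and 39%. Both lay in 25 (64.1%), against 7.12% of all promoters, and neither lay in 6 (Mad2l1, Nuf2, Birc5, Nusap1, Pttg1 and Melk). The 7 stretches below end at the last base before the listed start and show how the matches, in capitals, are placed in genes of different mitotic roles. That of Ccnb1 holds CCAAT boxes only, and the others hold both motifs.
Cdk1 (chr10:69352913-69353062, minus strand): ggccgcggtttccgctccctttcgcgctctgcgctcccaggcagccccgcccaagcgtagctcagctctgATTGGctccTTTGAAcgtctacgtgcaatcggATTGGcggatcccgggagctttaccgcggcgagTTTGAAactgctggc
Ccnb1 (chr13:100786487-100786636, minus strand): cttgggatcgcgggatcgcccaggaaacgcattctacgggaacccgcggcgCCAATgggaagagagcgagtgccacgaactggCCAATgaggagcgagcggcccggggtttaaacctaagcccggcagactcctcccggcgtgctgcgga
Cdc20 (chr4:118437344-118437493, minus strand): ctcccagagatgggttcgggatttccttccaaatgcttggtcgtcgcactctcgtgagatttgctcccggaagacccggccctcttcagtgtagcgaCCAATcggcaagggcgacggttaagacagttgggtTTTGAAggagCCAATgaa
Ube2c (chr2:164769779-164769928, plus strand): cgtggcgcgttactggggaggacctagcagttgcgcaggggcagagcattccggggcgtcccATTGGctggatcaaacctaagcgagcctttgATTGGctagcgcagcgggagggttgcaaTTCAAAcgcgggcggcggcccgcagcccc
Espl1 (chr15:102296143-102296292, plus strand): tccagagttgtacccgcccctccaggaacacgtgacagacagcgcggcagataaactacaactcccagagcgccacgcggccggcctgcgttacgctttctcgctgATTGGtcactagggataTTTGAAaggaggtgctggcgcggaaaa
Kif11 (chr19:37376232-37376381, plus strand): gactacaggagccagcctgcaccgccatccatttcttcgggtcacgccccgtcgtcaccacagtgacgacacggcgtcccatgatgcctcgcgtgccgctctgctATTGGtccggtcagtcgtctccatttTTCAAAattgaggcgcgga
Top2a (chr11:99024190-99024339, minus strand): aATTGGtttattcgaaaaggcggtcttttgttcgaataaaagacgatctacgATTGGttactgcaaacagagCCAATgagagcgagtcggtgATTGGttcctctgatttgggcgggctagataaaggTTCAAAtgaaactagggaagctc

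Such a match is a description of letters, not a bound site. In wild-type liver, 28 of the 29 genes with a CHR match rose with TCPOBOP (median log2 change 3.09), and so did 8 of the 10 without one (median 3.35). The plot of match positions shows the CHR matches close to the start in most windows.

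**Figure D1:**
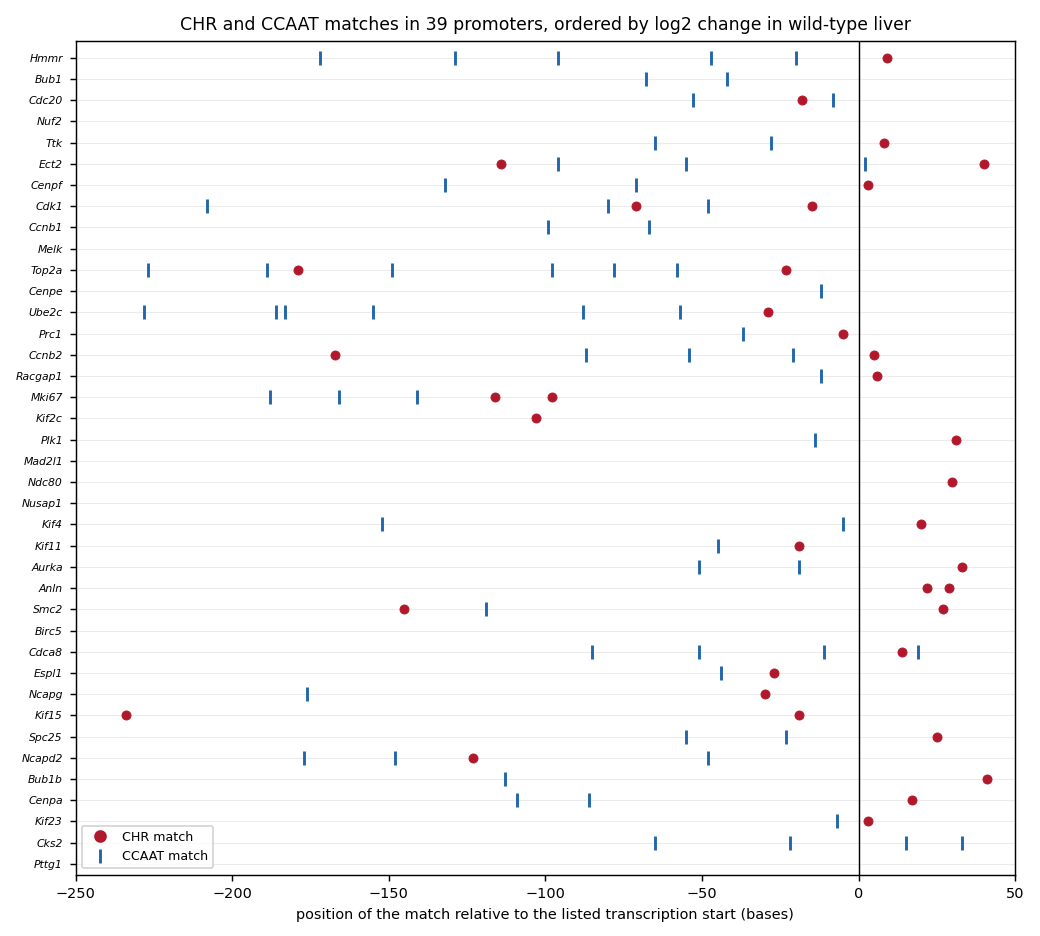
Positions of CHR matches (red points) and CCAAT matches (blue bars) in the 39 promoter windows, in bases from the listed start (vertical line), with genes ordered from the largest log2 change in wild-type liver at the top. CHR matches are in 29 windows and CCAAT matches in 29, and both kinds are found from the top to near the bottom of the order.

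Total counts per library ran from 11827994 to 19483951 in wild-type vehicle, from 30228724 to 37998473 in wild-type TCPOBOP, from 12612610 to 16904182 in humanized vehicle and from 14019983 to 16755802 in humanized TCPOBOP mice. The deepest libraries were thus all of 1 group, and depth and group cannot be told apart by design. Expression is given as TMM-scaled CPM, counts scaled to the library size and by edgeR's trimmed mean of M values. The humanized libraries carried their label, with mouse Nr1i3, the gene of CAR, at 1.63 to 2.70 CPM under vehicle against 93.4 to 107.1 CPM in wild-type vehicle livers. Cyp2b10, a CAR target, was at 2871 to 3561 CPM in wild-type TCPOBOP and 63.3 to 201 CPM in humanized TCPOBOP livers. Albumin and the other hepatocyte markers were present in all 16 libraries. The mitosis genes were low outside the wild-type TCPOBOP group. Their median count per library was 10 in wild-type vehicle, 215 in wild-type TCPOBOP and 6 in each humanized group.

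Within the wild-type vehicle group, replicate 2 stood apart. It had the highest level of the group in 40 of the 50 genes. Summed over the 50 genes, it held 155.8 CPM against 80.4 to 112 CPM in the other wild-type vehicle libraries. It also had the highest sums of the group for sinusoidal endothelial markers (1382 against 756 to 878.4 CPM) and for Kupffer cell and macrophage markers (1496 against 750.1 to 1095 CPM). The same held for hepatocyte markers (115085 against 73713 to 87689 CPM) and stellate markers (711.2 against 451.8 to 602.3 CPM). Its erythroid and lymphocyte sums were the highest by less, and its cholangiocyte and neutrophil sums were not the highest. The part of these cells in the mitosis genes of that library was not tested. Among the wild-type TCPOBOP libraries, replicate 4 was highest in 34 genes and replicate 1 lowest in 33.

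In wild-type liver, TCPOBOP raised genes of every step of mitosis. Of the 49 genes that passed the filter on low counts, 46 rose and 0 fell at an adjusted p under 0.05 in edgeR's two-sided quasi-likelihood test, with Benjamini-Hochberg adjustment over all 12913 genes tested. Across all genes tested, 8.09% rose and 4.99% fell. In the vehicle libraries of both strains alone, 22 of the 50 genes would have passed that filter. The others that were tested entered through the TCPOBOP libraries, so the filter favoured genes that are high there. With no filter on low counts, 47 of the 50 rose. The median log2 change of the 49 genes was 3.04, against -0.02 for all genes. At least a 2-fold rise was seen in 46 genes, at least 4-fold in 39 and at least 8-fold in 25. In 46 of the 50 genes all 4 TCPOBOP libraries lay above all 4 vehicle libraries, against 12.5% of all genes tested, and in 0 did all lie below, against 8.4%. All 46 remained called in every alternative run, among them one with all libraries thinned to the depth of the smallest. Without vehicle replicate 2 the median log2 change was 3.59.

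**Figure D2:**
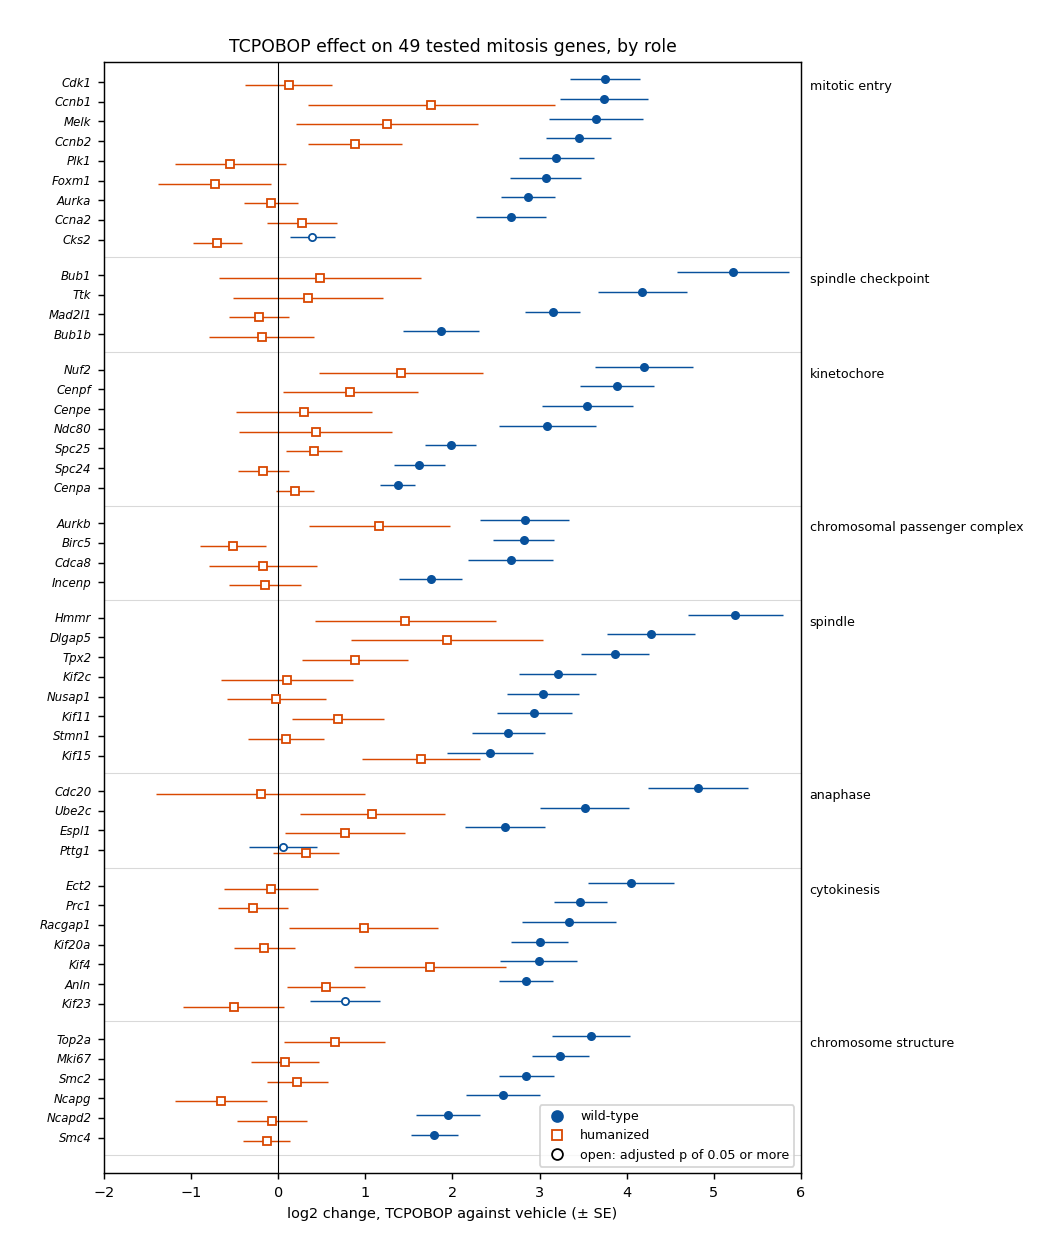
Log2 change with TCPOBOP (± SE, 4 libraries against 4) of the 49 tested genes in wild-type liver (blue circles) and humanized liver (orange squares), grouped by role, with open symbols for genes not past an adjusted p of 0.05. In wild-type liver 46 genes are past the threshold, all to the right of 0, and in humanized liver 0 are.

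The kinases and cyclins that take a cell into mitosis were the first group. Of the 9 tested, 8 rose, with log2 changes from 2.67 to 3.75. Cdk1, the central mitotic kinase (NM_007659, chromosome 10, 69335146 to 69352912), was at 1.03, 2.47, 0.751 and 0.910 CPM in vehicle replicates 1 to 4 and at 12.7, 20.4, 17.6 and 19.7 CPM in TCPOBOP replicates 1 to 4. The groups did not overlap, and vehicle replicate 2 was the highest of its group. The change was 13.4-fold, a log2 change of 3.75 ± 0.40 (adjusted p = 5.98e-06). Ccna2, which encodes cyclin A2, went from 2.64, 3.81, 2.63 and 2.55 CPM to 15.98, 15.7, 19.9 and 22.5 CPM, with every treated library above every control and a log2 change of 2.67 ± 0.40 (adjusted p = 0.000179). Ccnb1, which encodes cyclin B1, was near the limit of detection under vehicle, at 0.294, 0.951, 0.282 and 0.182 CPM. It reached 3.996, 6.44, 5.89 and 7.42 CPM with TCPOBOP (log2 change 3.74 ± 0.51, adjusted p = 6.45e-05), and Ccnb2 rose as well (3.45 ± 0.37, adjusted p = 6.51e-06).

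Polo-like kinase 1, Plk1, which drives centrosome maturation and mitotic entry, was at 1.17, 2.85, 1.13 and 0.546 CPM under vehicle and 8.92, 15.7, 13.3 and 14.6 CPM with TCPOBOP. The lowest treated library was thus above the highest control, and the log2 change was 3.19 ± 0.43 (adjusted p = 5.25e-05). Aurka, the centrosomal Aurora kinase, went from 1.76, 2.85, 1.31 and 1.46 CPM to 8.43, 14.7, 15.5 and 15.6 CPM, a log2 change of 2.87 ± 0.31 (adjusted p = 5.74e-06), with treated replicate 1 lower than the other treated libraries. Foxm1 (NM_008021, chromosome 6, 128362994 to 128375886), the transcription factor of many late cell-cycle genes, was at 1.76, 3.71, 0.563 and 0.819 CPM under vehicle, again highest in replicate 2. With TCPOBOP it was at 12.04, 15.4, 14.97 and 15.1 CPM and had risen 8.39-fold, a log2 change of 3.07 ± 0.41 (adjusted p = 5.25e-05). The kinase gene Melk rose by 3.65 ± 0.54 (adjusted p = 0.000151) on the log2 scale.

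The spindle checkpoint and kinetochore genes all rose. The 4 checkpoint genes had log2 changes from 1.87 to 5.22. Bub1 (NM_001113179, chromosome 2, 127800197 to 127831859), a checkpoint kinase, was at 0.294, 0.190, 0 and 0 CPM under vehicle, with 0 counts in replicates 3 and 4, and at 4.05, 3.13, 3.93 and 5.97 CPM with TCPOBOP. Its log2 change of 5.22 ± 0.64 (adjusted p = 2.22e-05) was the second largest of the list, and it rests on 4 counts in the whole vehicle group. Bub1b, which encodes BUBR1, was at 2.79, 3.52, 1.13 and 1.27 CPM and then 5.37, 8.41, 8.42 and 9.34 CPM, with a smaller log2 change of 1.87 ± 0.44 (adjusted p = 0.0072) and no overlap. Ttk, the MPS1 kinase (4.18 ± 0.51, adjusted p = 2.22e-05), and Mad2l1, the MAD2 subunit of the checkpoint complex (3.15 ± 0.32, adjusted p = 3.09e-06), rose too, Mad2l1 from 2.35, 1.71, 1.22 and 0.546 CPM to 9.91, 11.2, 13.99 and 15.3 CPM.

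The 7 kinetochore genes rose by 1.37 to 4.20 on the log2 scale. Ndc80, Nuf2, Spc24 and Spc25 encode the 4 subunits of the NDC80 complex, which holds microtubule ends. Their log2 changes were unequal: 4.20 ± 0.56 for Nuf2, 3.09 ± 0.56 for Ndc80, 1.98 ± 0.29 for Spc25 and 1.62 ± 0.29 for Spc24. Ndc80 was at 0.294, 0.951, 0 and 0.273 CPM under vehicle and 2.96, 2.24, 4.02 and 4.14 CPM with TCPOBOP, and Nuf2 at 0.587, 0.761, 0 and 0.364 CPM and 6.79, 6.84, 7.58 and 9.92 CPM. For both, all treated libraries were above all controls. Spc24 started from a higher count than its partners, 10.3, 16.8, 7.89 and 10.7 CPM, and reached 25.4, 48.8, 33.4 and 33.03 CPM without overlap. Cenpa, the histone H3 variant of centromeres, had the smallest change of the genes that rose. It was at 3.82, 3.14, 4.51 and 4.002 CPM under vehicle and 7.77, 10.8, 10.01 and 11.5 CPM with TCPOBOP, a log2 change of 1.37 ± 0.20 (adjusted p = 0.000101). The outer kinetochore genes Cenpe, a kinesin (3.55 ± 0.52, adjusted p = 0.000135), and Cenpf (3.89 ± 0.42, adjusted p = 6.63e-06) rose more than 8-fold.

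All 4 genes of the chromosomal passenger complex, which corrects wrong microtubule attachments and later acts at the cleavage site, rose. Aurkb, its kinase, was at 1.47, 3.33, 0.0939 and 0.728 CPM under vehicle, a wide spread with replicate 2 highest, and at 7.12, 10.51, 10.9 and 11.5 CPM with TCPOBOP. The groups did not overlap and the log2 change was 2.83 ± 0.51 (adjusted p = 0.000864). Birc5, which encodes survivin, went from 1.32, 3.24, 1.31 and 0.546 CPM to 9.20, 11.8, 12.1 and 12.7 CPM (2.82 ± 0.35, adjusted p = 2.35e-05). The log2 changes of Cdca8, which encodes borealin, and of the scaffold gene Incenp were 2.67 ± 0.49 (adjusted p = 0.000987) and 1.75 ± 0.36 (adjusted p = 0.00264).

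All 8 spindle genes rose, by 2.43 to 5.25 on the log2 scale. Hmmr (NM_013552, chromosome 11, 40701388 to 40733464), which encodes a protein of spindle microtubules, had the largest change of the list. It was at 0.147, 1.14, 0.0939 and 0.182 CPM under vehicle, with most of the signal in replicate 2, and at 12.4, 12.9, 19.2 and 18.9 CPM with TCPOBOP, a 38-fold rise and a log2 change of 5.25 ± 0.55 (adjusted p = 4.27e-06). Dlgap5, which encodes the microtubule-binding HURP, was at 0.440, 0.476, 0.376 and 0.182 CPM and then 4.87, 6.98, 7.72 and 9.34 CPM (4.28 ± 0.51, adjusted p = 1.85e-05). For neither gene did the treated and control libraries overlap.

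Kif11, the kinesin that pushes the spindle poles apart, went from 2.64, 1.81, 0.751 and 1.27 CPM to 10.95, 9.66, 11.9 and 15.8 CPM (2.94 ± 0.43, adjusted p = 0.000115). Kif15, a kinesin that can share that task, was at 0.440, 0.761, 0.188 and 0.364 CPM and then 2.74, 1.34, 2.67 and 2.89 CPM (2.43 ± 0.49, adjusted p = 0.00244), the smallest change among the spindle genes, with treated replicate 2 lower than the other treated libraries. Tpx2, an activator of Aurora A, went from 1.17, 1.90, 0.751 and 0.728 CPM to 12.2, 15.3, 20.1 and 19.5 CPM (3.87 ± 0.39, adjusted p = 2.63e-06), without overlap. The microtubule depolymerase Kif2c (3.21), Nusap1 (3.04) and the tubulin-binding Stmn1 (2.64) also rose. Stmn1 has annotated pseudogenes, and how reads that map to several places were counted is not given in the sources used here, so its value is less certain.

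Of the 4 genes of anaphase, 3 rose. Cdc20 (NM_023223, chromosome 4, 118432901 to 118437343), the activator of the anaphase promoting complex, was at 0.587, 4.09, 0.376 and 0.546 CPM under vehicle and 22.2, 55.8, 45.1 and 40.9 CPM with TCPOBOP. Vehicle replicate 2 was far above the other controls and still below every treated library. The rise was 28.3-fold, a log2 change of 4.82 ± 0.57 (adjusted p = 1.74e-05). Ube2c, the ubiquitin-conjugating enzyme of the same complex, rose by 3.52 ± 0.51 (adjusted p = 0.000103). Espl1, which encodes separase, went from 1.17, 3.05, 0.282 and 0.728 CPM to 5.80, 8.86, 8.19 and 9.15 CPM (2.60 ± 0.46, adjusted p = 0.000728).

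Pttg1 (NM_013917, chromosome 11, 43420244 to 43427463), which encodes securin, the inhibitor of separase, did not pass the threshold. It was at 12.5, 9.13, 16.5 and 19.3 CPM under vehicle and 16.6, 13.2, 16.1 and 13.9 CPM with TCPOBOP. These groups overlapped throughout, and the log2 change was 0.06 ± 0.39 (adjusted p = 0.954), with a 95% confidence interval of -0.76 to 0.87. That interval lies below the changes of Cdc20, Ube2c and Espl1 as fitted.

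In cytokinesis, 6 of 7 genes rose. Ect2, the exchange factor that activates RhoA at the cell equator, was at 1.76, 2.47, 0.751 and 1.46 CPM under vehicle and 17.5, 24.5, 31.3 and 33.4 CPM with TCPOBOP (4.05 ± 0.49, adjusted p = 2.07e-05). Prc1, which bundles the microtubules of the central spindle, went from 1.03, 2.47, 0.939 and 0.910 CPM to 12.6, 14.8, 15.3 and 17.5 CPM. It had the smallest adjusted p of the list, with a log2 change of 3.47 ± 0.30 (adjusted p = 5.24e-07). Anln, the actin-binding anillin of the cleavage furrow, went from 1.47, 1.62, 0.751 and 1.27 CPM to 6.35, 8.81, 9.26 and 12.2 CPM (2.85 ± 0.31, adjusted p = 6e-06). For these genes all treated libraries were above all controls.

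The kinesin genes Kif20a and Kif4 rose, Kif20a by 3.00 ± 0.33 (adjusted p = 8.44e-06) and Kif4 by 2.99 ± 0.44 (adjusted p = 0.000139). Racgap1 and Kif23 encode the partners that form centralspindlin. Racgap1 rose by 3.34 ± 0.54 (adjusted p = 0.00033). Kif23 was at 1.17, 4.47, 0.939 and 1.27 CPM under vehicle and 2.96, 3.62, 4.30 and 2.70 CPM with TCPOBOP and did not pass, with a log2 change of 0.77 ± 0.40 (adjusted p = 0.248). Vehicle replicate 2 alone was above all treated libraries. Without it, Kif23 passed with a log2 change of 1.58.

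All 6 genes of chromosome structure rose. Mki67, whose protein coats mitotic chromosomes and serves as a proliferation marker, was at 4.11, 6.28, 2.35 and 2.91 CPM under vehicle and 30.3, 37.5, 38.9 and 41.1 CPM with TCPOBOP (3.24 ± 0.33, adjusted p = 2.63e-06). Top2a (NM_011623, chromosome 11, 98992947 to 99024199), the topoisomerase that untangles sister chromatids, went from 3.08, 6.47, 1.13 and 2.001 CPM to 31.3, 30.7, 43.04 and 47.9 CPM (3.59 ± 0.45, adjusted p = 2.6e-05). Both genes were apart in the groups by a wide margin.

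The other 4 encode parts of condensin, which compacts chromosomes. Ncapg, a subunit of condensin I, was at 1.47, 0.571, 1.13 and 1.82 CPM and then 7.72, 4.83, 8 and 9.34 CPM (2.58 ± 0.42, adjusted p = 0.00034), and Ncapd2, another, rose by 1.95 ± 0.37 (adjusted p = 0.00128). Smc2, a core ATPase, went from 3.82, 1.52, 2.54 and 1.82 CPM to 13.9, 11.9, 20.9 and 21.6 CPM (2.85 ± 0.32, adjusted p = 8.44e-06). Its partner Smc4 went from 13.9, 5.14, 10.9 and 10.9 CPM to 30.98, 21.1, 42.5 and 46.2 CPM (1.79 ± 0.27, adjusted p = 0.000166). For the SMC pair and Ncapg, unlike most genes of the list, vehicle replicate 2 was the lowest of its group.

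The 2 remaining genes without a call take part in mitotic entry. Cks2, a small subunit that binds CDK1, was at 4.11, 4.38, 3.004 and 3.27 CPM under vehicle and 4.49, 6.17, 4.21 and 4.38 CPM with TCPOBOP, overlapping groups with a log2 change of 0.39 ± 0.26 (adjusted p = 0.406). Cdc25c, the phosphatase that activates CDK1, was below the filter and was not tested in the main fit. It had 11 counts in the vehicle group and 115 in the TCPOBOP group, and it rose where it entered the test. It was at 0.147, 0.666, 0.0939 and 0.182 CPM under vehicle and 0.657, 1.52, 1.73 and 1.54 CPM with TCPOBOP, so replicate 1 of the treated group lay within the range of the controls.

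**Figure D3:**
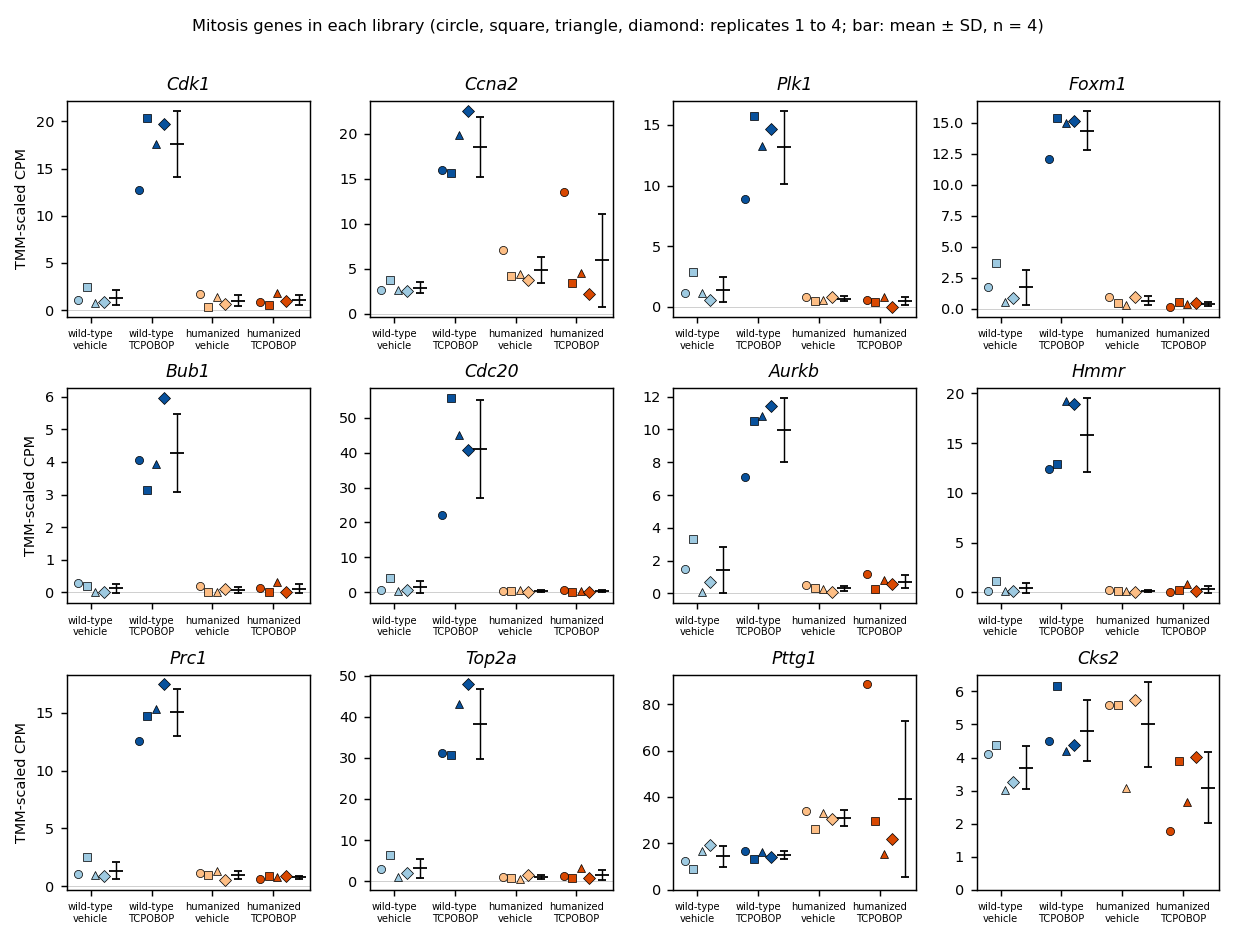
TMM-scaled CPM of 12 of the genes in each of the 16 libraries, with a symbol for each replicate number and the mean ± SD of each group (n = 4) beside the points. In 10 of the genes the 4 wild-type TCPOBOP libraries lie above all others, and Pttg1 and Cks2 do not show this.

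In humanized liver, the same dose and schedule changed none of these genes past the threshold. Of the 49 tested, 0 rose and 0 fell at an adjusted p under 0.05, where 2.51% of all genes tested were called. DESeq2 called 0 as well, and an unadjusted p under 0.05 was reached by 2 genes, Cks2 and Kif15. Across all genes tested, 17.9% had an unadjusted p under 0.05. The median log2 change was 0.22, against 0.02 for all genes. In 0 of the 50 genes did all TCPOBOP libraries lie above all vehicle libraries, against 4.6% of all genes tested, and in 0 did all lie below, against 5.36%. The 95% confidence interval lay below a 2-fold rise in 17 genes and below a 4-fold rise in 31, so for the rest a 4-fold rise was not excluded at this depth.

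The low counts set that limit. In the humanized libraries alone, 18 of the 50 genes would have passed the filter, and 31 of the 49 tested genes passed only through the wild-type libraries. The median log2 change of the 18 was -0.08. In humanized vehicle livers Ccnb1, Cdc25c, Bub1, Nuf2, Kif4, Melk, Dlgap5 and Hmmr had fewer than 3 counts in every library. Ccnb1 had 1 count in the whole humanized vehicle group and 4 in the TCPOBOP group, a ratio of 4.35 with a 95% counting interval of 0.43 to 214. Dlgap5 had 2 and 8 counts, a ratio of 4.35 (0.868 to 42.1). Melk had 3 and 7 (2.54, 0.579 to 15.2) and Bub1 had 3 and 4 (1.45, 0.245 to 9.9). Cdc25c had 0 and 1 counts, and no ratio is given.

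The better counted genes gave narrower intervals. Cenpa was at 3.01, 2.79, 2.24 and 2.51 CPM in humanized vehicle replicates 1 to 4 and at 3.396, 2.51, 3.07 and 3.08 CPM in humanized TCPOBOP replicates 1 to 4. Its log2 change was 0.19 ± 0.22 (adjusted p = 0.711) with an interval of -0.27 to 0.65, which lies below its change in wild-type liver. Smc4 was at 12.7, 11.8, 12.1 and 12.3 CPM and then 11.2, 8.51, 12.2 and 12.7 CPM, a log2 change of -0.13 ± 0.27 with an interval of -0.70 to 0.44. Aurka was at 3.11, 2.44, 4.21 and 3.34 CPM and then 4.73, 2.79, 2.05 and 2.96 CPM, with an interval of -0.74 to 0.59. For all 3 genes the groups overlapped.

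Spc24 was at 19.8, 14.9, 14.7 and 15.7 CPM under vehicle and 23.6, 14.5, 10.8 and 9.25 CPM with TCPOBOP (interval -0.77 to 0.43), with the treated libraries on both sides of the controls. Mki67 was at 2.49, 0.698, 2.52 and 1.88 CPM and 1.62, 2.23, 2.87 and 1.19 CPM, and its interval was -0.74 to 0.90. Mad2l1 was at 2.49, 1.86, 2.10 and 2.30 CPM and 1.33, 1.53, 1.84 and 2.73 CPM, Birc5 at 3.11, 1.86, 2.52 and 2.09 CPM and 1.48, 1.67, 2.05 and 1.42 CPM, and Kif20a at 4.56, 3.03, 2.66 and 3.86 CPM and 5.46, 3.07, 2.87 and 1.54 CPM. The intervals of these 3 genes, -0.94 to 0.49, -1.32 to 0.27 and -0.89 to 0.58, all lay below a 2-fold rise.

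The treated and control values of the remaining kinases and cyclins overlapped. Cdk1 was at 1.66, 0.349, 1.40 and 0.626 CPM and 0.886, 0.558, 1.84 and 0.948 CPM, and Plk1 at 0.8294, 0.466, 0.561 and 0.835 CPM and 0.591, 0.419, 0.820 and 0 CPM. Foxm1 was at 0.933, 0.466, 0.280 and 0.939 CPM and 0.148, 0.558, 0.410 and 0.474 CPM, and Ccnb1 at 0.104, 0, 0 and 0 CPM and 0, 0, 0.410 and 0 CPM. Ccna2 was at 7.05, 4.19, 4.49 and 3.76 CPM under vehicle and 13.6, 3.49, 4.51 and 2.25 CPM with TCPOBOP, where replicate 1 stood above all other humanized libraries and below the lowest wild-type TCPOBOP library. Cdc25c had a count in 1 of the 8 humanized libraries only, TCPOBOP replicate 3.

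Genes of later steps were as low. Top2a was at 1.04, 0.698, 0.561 and 1.57 CPM and 1.18, 0.837, 3.28 and 0.711 CPM, and Cdc20 at 0.311, 0.349, 0.561 and 0 CPM and 0.591, 0.140, 0.307 and 0 CPM. Espl1 was at 0.622, 0.116, 0.140 and 0.626 CPM and 0.591, 0.698, 0.922 and 0.474 CPM, Aurkb at 0.518, 0.349, 0.280 and 0.104 CPM and 1.18, 0.279, 0.820 and 0.593 CPM, and Bub1b at 1.45, 0.931, 0.841 and 0.418 CPM and 1.18, 0, 1.23 and 0.711 CPM. Every one of these humanized values is below the lowest wild-type TCPOBOP value of the same gene.

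Ndc80 was at 0.415, 0.233, 0.140 and 0.104 CPM and 0.591, 0, 0.410 and 0.237 CPM, Kif11 at 1.14, 0.698, 1.12 and 0.522 CPM and 0.148, 1.12, 2.66 and 1.42 CPM, and Ect2 at 0.8294, 3.73, 1.82 and 1.46 CPM and 0.443, 2.51, 3.48 and 0.711 CPM. Prc1 was at 1.14, 0.931, 1.26 and 0.522 CPM and 0.591, 0.837, 0.820 and 0.830 CPM, and Anln at 0.207, 0.582, 0.421 and 0.626 CPM and 0.443, 0.558, 1.02 and 0.593 CPM. Ncapg was at 1.24, 1.40, 0.701 and 1.25 CPM and 0, 0.977, 1.23 and 0.593 CPM, and Smc2 at 2.80, 2.56, 1.26 and 1.88 CPM and 1.62, 2.51, 3.48 and 2.25 CPM. In each of them the treated and control libraries overlapped.

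The 2 genes with an unadjusted p under 0.05 pointed in opposite directions. Cks2 was at 5.60, 5.59, 3.08 and 5.74 CPM under vehicle and 1.77, 3.91, 2.66 and 4.03 CPM with TCPOBOP, a log2 change of -0.70 ± 0.28 (adjusted p = 0.196). Kif15 was at 0.207, 0.116, 0.140 and 0.418 CPM and 1.77, 0.419, 0.615 and 0.237 CPM, with a log2 change of 1.64 ± 0.68 (adjusted p = 0.207), and its highest value was in TCPOBOP replicate 1. Pttg1 differed widely between treated livers. It was at 33.8, 26.3, 33.2 and 30.7 CPM under vehicle and 88.6, 29.6, 15.6 and 21.9 CPM with TCPOBOP, with replicate 1 above and replicate 3 below all controls, and its log2 change was 0.32 ± 0.38 (adjusted p = 0.717). Without replicate 1 it was -0.45.

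Humanized TCPOBOP replicates 1 and 2 held the highest and the second highest Pttg1 values of their group, with replicate 2 within the range of the controls. These 2 libraries also had lower sums of the markers of some other cell types than replicates 3 and 4. Their Kupffer cell and macrophage sums were 360.7 and 439.3 CPM against 976.4 and 824.1 CPM, over 16 markers, and their sinusoidal endothelial sums 260.3 and 268 CPM against 674.6 and 630.8 CPM, over 16 markers. None of these markers was at 0 throughout the group. Stellate sums (204.2 and 158.2 CPM against 312.8 and 381.8 CPM) and lymphocyte sums were lower in them as well. The cholangiocyte, erythroid and neutrophil sums did not split the libraries in this way. The part of these cells in the Pttg1 values was not tested. Summed over the 50 genes, the humanized TCPOBOP libraries held 86.9 to 189.7 CPM and the humanized vehicle libraries 103.9 to 133 CPM. Without Pttg1 the sums were 65.0 to 101.1 and 76.5 to 99.2 CPM.

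**Figure D4:**
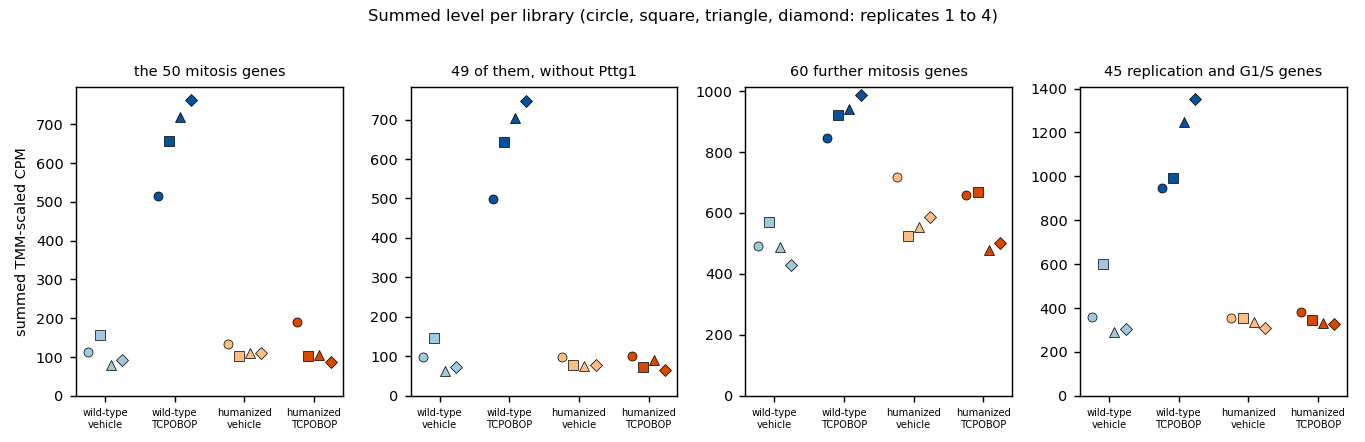
Summed TMM-scaled CPM per library of the 50 genes, of the 49 without Pttg1, of 60 further mitosis genes and of 45 DNA replication and G1/S genes, with a symbol for each replicate number. The 50 genes sum to 515.7 to 762.2 CPM in the wild-type TCPOBOP libraries and to at most 189.7 CPM in the other 12.

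The difference between the TCPOBOP effects was tested as an interaction, the humanized log2 change minus the wild-type one. It uses all 4 groups and so shares its samples with both comparisons above. The effect was lower in humanized liver in 29 of 49 genes and higher in 0, where 3.98% of all genes tested were lower and 7.46% differed in either direction. In the humanized libraries alone, 18 of the 50 genes would have passed the filter, and the others that were tested entered through the wild-type libraries. With no filter on low counts, 29 were lower as well. The median difference of the 49 genes was -2.63 on the log2 scale, against 0.00 for all genes. The 5 genes with the smallest p were Prc1 (-3.76 ± 0.50, adjusted p = 0.000226), Mad2l1 (-3.38 ± 0.47, adjusted p = 0.000312), Aurka (-2.95 ± 0.44, adjusted p = 0.000593), Kif20a (-3.15 ± 0.48, adjusted p = 0.000627) and Birc5 (-3.34 ± 0.51, adjusted p = 0.00066). The smallest of these 5, that of Aurka, was a 7.71-fold difference between the rises.

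By role, the difference passed in 6 of 9 genes of mitotic entry, 2 of 4 of the checkpoint, 3 of 7 of the kinetochore, 3 of 4 of the passenger complex, 4 of 8 of the spindle, 1 of 4 of anaphase, 4 of 7 of cytokinesis and 6 of 6 of chromosome structure. Among them, Mki67 differed by -3.16 ± 0.50 (adjusted p = 0.000857), Foxm1 by -3.80 ± 0.77 (adjusted p = 0.00507), Ect2 by -4.13 ± 0.72 (adjusted p = 0.00191) and Smc4 by -1.92 ± 0.38 (adjusted p = 0.00458). Cdc20 had the largest difference, -5.02 ± 1.44 (adjusted p = 0.0397), with a 95% interval of -8.05 to -2.0. Cenpa had the smallest of those that passed, -1.18 ± 0.29 (adjusted p = 0.0189).

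In 15 of the 29 genes the difference was past the threshold in every alternative, Prc1, Mad2l1, Aurka, Kif20a, Birc5, Mki67, Foxm1, Ect2 and Smc4 among them. Leaving out humanized vehicle replicate 1 left 17 genes past it. Cdc20 lost its call without any 1 library other than replicate 2 of wild-type vehicle, replicate 1 of either TCPOBOP group and replicate 4 of humanized vehicle. Cenpa lost it without wild-type TCPOBOP replicate 4 (-1.11) and in thinned counts (-0.98). Most genes without a called difference had few counts in the humanized libraries, such as Bub1 (-4.74 ± 1.66, adjusted p = 0.0941), Hmmr (-3.78 ± 1.51, adjusted p = 0.147) and Ccnb1 (-1.98 ± 2.55, adjusted p = 0.731). Hmmr passed without wild-type vehicle replicate 2, with a difference of -5.22. Pttg1 differed by 0.27 ± 0.54 (adjusted p = 0.841).

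Under vehicle, humanized livers were compared with wild-type livers, which shares the vehicle samples of both comparisons above. Lower levels in humanized liver passed the threshold for 5 of 49 genes and higher levels for 0, where 8.95% of all genes tested were lower and 7.11% higher. The share of these genes is thus near that of all genes. With the vehicle libraries alone, 22 of the 50 genes would have passed the filter on low counts, and the others that were tested entered through the TCPOBOP libraries. The median log2 difference of the 22 was 0.09, with 1 lower. Over all 49 it was -0.78, and -0.39 without wild-type vehicle replicate 2, against 0.00 for all genes, so the lower median rests on genes that had few counts in the vehicle libraries. All humanized libraries lay below all wild-type ones in 6 of the 50 genes (12% of all genes tested) and above them in 1, Pttg1 (14.4% of all genes tested).

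The 5 genes were Kif4, Anln, Ccnb1, Top2a and Tpx2. Kif4 was at 1.17, 1.71, 0.188 and 0.546 CPM in wild-type and 0.104, 0, 0.140 and 0.209 CPM in humanized vehicle livers (-2.84 ± 0.75, adjusted p = 0.0199), with 1 humanized library above the lowest wild-type one. Anln was at 0.207, 0.582, 0.421 and 0.626 CPM in humanized livers, all below the wild-type values given above (-1.45 ± 0.41, adjusted p = 0.0258). Top2a differed by -1.67 ± 0.53 (adjusted p = 0.0427) and Tpx2, at 0.622, 0.233, 0.421 and 0.104 CPM in humanized livers, by -1.69 ± 0.55 (adjusted p = 0.0439). Ccnb1 had 17 counts in the wild-type group and 1 in the humanized group, a ratio of 15.2 with a counting interval of 2.39 to 637. Dlgap5 had 14 and 2 counts (6.28, 1.44 to 56.9), Melk 11 and 3 (3.29, 0.869 to 18.4) and Bub1 4 and 3 (1.2, 0.202 to 8.16). Cdc25c had 11 and 0 counts and was lower in humanized livers by at least 3.29-fold, taking 3 counts in the humanized group as the floor.

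None of the 5 calls held in every alternative. Leaving out any 1 of the 8 vehicle libraries changed the number of lower genes by more than 1.5 times, to 0 without humanized vehicle replicate 3, 1 without replicate 1 and 2 without replicate 2 or 4. It was 2 without wild-type vehicle replicate 1 or 2, 12 without replicate 3 and 8 without replicate 4. Leaving out a library of the treated groups, which share the fit, also changed the number, to 2 lower genes without wild-type TCPOBOP replicate 3, 3 without replicate 4 and 9 without humanized TCPOBOP replicate 1. The level of Pttg1 was higher in each humanized vehicle library than in each wild-type one, by 1.11 ± 0.39 (adjusted p = 0.0601), and did not pass. Neither did Aurka (0.82 ± 0.32, adjusted p = 0.0878) or Mki67 (-1.04 ± 0.36, adjusted p = 0.0562). Pttg1 and Mki67 passed without humanized TCPOBOP replicate 1, 3 or 4, Mki67 also without wild-type vehicle replicate 3, and Aurka without wild-type vehicle replicate 2. Both Pttg1 (1.08) and Mki67 (-1.07) passed by DESeq2. Pttg1 also passed with upper-quartile factors (1.16) and in the compared groups alone (1.09), and Mki67 with no filter (-1.07) and in thinned counts (-1.16).

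Some markers of other cell types moved with strain under vehicle, where 8.95% of all genes tested were lower in humanized livers and 7.11% higher. Of 15 tested Kupffer cell and macrophage markers 9 were lower in humanized livers, among them Adgre1 (-2.35) and Csf1r (-1.92), and of 16 sinusoidal endothelial markers 8 were lower, among them Stab2 (-1.23). The summed macrophage level was 750.1 to 1496 CPM in wild-type and 407.3 to 689.9 CPM in humanized vehicle livers, and the endothelial sum 756 to 1382 and 444.4 to 549.6 CPM. Of 7 tested erythroid markers 4 were lower, all of them globin genes. Of 16 stellate markers 3 were lower and 1 higher. Of 10 hepatocyte markers 1 was lower, as was 1 of 5 tested lymphocyte markers. Of 6 tested cholangiocyte markers 1 was higher, and of 2 tested neutrophil markers 0 were called. The part of these cells in the 5 lower mitosis genes was not tested. In wild-type liver, 0 of 15 tested Kupffer cell and macrophage markers were called with TCPOBOP. Of 16 sinusoidal endothelial and 16 stellate markers 0 were called. Of 9 markers each, 6 were tested for cholangiocytes, 7 for erythroid cells and 2 for neutrophils, and 0 were called. The rest were below the filter on low counts, so little can be said of them. Of 5 tested lymphocyte markers 1 fell. Of 10 hepatocyte markers (median -0.45) 3 fell, Alb (-1.56), Ahsg (-0.88) and Ttr (-0.72). Ttr lost its call without replicate 1, 3 or 4 of either wild-type group or humanized vehicle replicate 3 or 4. The sum of the 10 hepatocyte markers, in which the most abundant genes weigh most, was 73713 to 115085 CPM under vehicle and 35265 to 51723 CPM with TCPOBOP.

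Other genes of the same pathways were read from lists that do not include the 50 genes. Of 55 tested further genes of mitosis, 47 rose in wild-type liver and 0 fell (median 2.65). The 4 with the smallest p were Cdca2 (3.34 ± 0.30, adjusted p = 6.7e-07), which targets a phosphatase to chromosomes, the spindle genes Knstrn (4.30 ± 0.38, adjusted p = 6.72e-07) and Ckap2 (3.97 ± 0.36, adjusted p = 7.25e-07), and the kinesin gene Kif20b (4.13 ± 0.38, adjusted p = 1.01e-06). Of 18 tested further genes of the kinetochore and centromere, 11 rose and 0 fell (median 1.39), led by Cenpi (5.07 ± 0.61, adjusted p = 2.08e-05), Knl1 (4.30 ± 0.68, adjusted p = 0.000249), Cenpn (2.28 ± 0.37, adjusted p = 0.000372) and Cenpk (1.81 ± 0.31, adjusted p = 0.000507). In humanized liver 0 genes of either list were called, and the interaction was lower for 29 of 55 and 5 of 18. DNA replication and G1/S genes, which act before mitosis, had 39 of 44 higher and 1 lower in wild-type liver (median 1.96), led by Rrm2 (4.02), Chaf1b (2.88), Mcm6 (3.21) and Mcm4 (2.41), and 0 called in humanized liver.

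The counts for the anaphase promoting complex and for cohesin are small and stand beside the 8.09% of all genes tested that rose. Of 16 genes of the anaphase promoting complex and its regulators, 2 rose in wild-type liver (median 0.14). They were Cdc23 (0.75 ± 0.17, adjusted p = 0.00555), a core subunit, and Fbxo5 (1.30 ± 0.39, adjusted p = 0.0334), which encodes the inhibitor EMI1. Fbxo5 lost its call without vehicle replicate 1 or 4 or TCPOBOP replicate 1, 3 or 4. Of 13 genes of cohesin and its loaders, 2 rose (median 0.17). They were Esco2 (4.87 ± 0.54, adjusted p = 7.53e-06), the acetyltransferase that locks cohesin onto replicated DNA, and Cdca5 (3.35 ± 0.62, adjusted p = 0.00123), which encodes sororin. Cdc20 and Ube2c, which serve the anaphase promoting complex, rose while most of its subunit genes did not pass.

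Among regulators of late cell-cycle transcription, 8 of 18 rose in wild-type liver and 0 fell (median 0.76). The largest change was that of Mybl1, a MYB family member, by 4.58 ± 0.58 (adjusted p = 3.31e-05). E2f2 (2.37), Rbl1, which encodes p107 (2.23), E2f1 (1.98), the MuvB subunit gene Lin54 (1.22), E2f8 (1.03), E2f3 (0.79) and Tfdp1 (0.78) rose as well. E2f3 and E2f8 lost their calls without vehicle replicate 3 or TCPOBOP replicate 3 or 4, and E2f8 also without vehicle replicate 4. Mybl2, named for its product B-MYB, the usual partner of MuvB, was at 0 to 1.71 CPM under vehicle and 0.328 to 0.712 CPM with TCPOBOP. These are few counts, as 1 count is 0.0447 to 0.147 CPM in the wild-type libraries, and no change is read from them. Under vehicle, Mybl1 (2.61 ± 0.64, adjusted p = 0.0163) and the MuvB subunit gene Lin37 (1.18 ± 0.29, adjusted p = 0.0157) were higher in humanized livers, and Mybl1 lost this call without humanized vehicle replicate 1. These were 2 of 18 tested genes, where 7.11% of all genes tested were higher. In humanized liver 0 of the 18 were called with TCPOBOP, and the interaction was lower for Mybl1 (-5.66 ± 0.81, adjusted p = 0.000436) and Rbl1 (-2.25 ± 0.49, adjusted p = 0.0085).

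Genes that regulate the cell cycle and mitosis, most of them as brakes, were mixed. Arpp19 is among those whose product is not a brake. In wild-type liver 7 of 18 rose and 1 fell (median 0.86), where 8.09% of all genes tested rose and 4.99% fell. Chek1, a checkpoint kinase, rose by 4.08 ± 0.51 (adjusted p = 2.55e-05), the CDK4/6 inhibitor gene Cdkn2c by 2.12 ± 0.24 (adjusted p = 8.44e-06) and Pkmyt1, whose kinase inhibits CDK1, by 2.09 ± 0.57 (adjusted p = 0.0206). Wee1, whose kinase also inhibits CDK1 (1.70), Gadd45a (1.48), Arpp19 (1.39) and Chek2 (1.24) rose, and Btg1, an antiproliferative gene, fell (-0.82 ± 0.23, adjusted p = 0.0226). The calls of Chek1, Cdkn2c and Gadd45a held in every alternative. The other 5 calls were lost without TCPOBOP replicate 4. Those of Wee1, Chek2 and Btg1 were also lost without replicate 3 of either group, those of Pkmyt1, Chek2 and Btg1 without vehicle replicate 4, and those of Wee1 and Btg1 without TCPOBOP replicate 2. Wee1 and Chek2 lost theirs without vehicle replicate 1, and Wee1 without vehicle replicate 2.

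This was the only one of these 7 lists with calls in humanized liver, 1 higher and 1 lower of 18 tested. Among all genes tested, 2.51% were called there. There Wee1 rose (2.35 ± 0.60, adjusted p = 0.0469) and Cdkn1a, which encodes the CDK inhibitor p21, fell (-1.84 ± 0.47, adjusted p = 0.0449). Both lost these calls without any 1 of the wild-type TCPOBOP libraries, humanized vehicle replicate 1, 3 or 4, or humanized TCPOBOP replicate 3 or 4, and Wee1 also without wild-type vehicle replicate 1 or humanized vehicle replicate 2. Neither held with the replicate block (2.21 for Wee1 and -1.94 for Cdkn1a) or in the compared groups alone (2.37 and -1.84). Wee1 also lost its call with upper-quartile factors (2.27) and Cdkn1a with summed accessions (-1.85). Their starting points differed between strains. Under vehicle, humanized livers had lower Wee1 (-2.38 ± 0.60, adjusted p = 0.017) and higher Cdkn1a (2.92 ± 0.49, adjusted p = 0.00238) and Gadd45g (2.11 ± 0.65, adjusted p = 0.036) than wild-type livers. Of the 18 tested genes of this list, 1 was thus lower and 2 were higher. Across all genes tested, 8.95% were lower and 7.11% higher, so these few calls are not read as a trait of the list. The call of Wee1 was lost without humanized vehicle replicate 1, and that of Gadd45g without replicate 1, 3 or 4 of either vehicle group. Cdkn1a was at 38.9 to 86.1 CPM in humanized vehicle, 6.64 to 38.5 CPM in humanized TCPOBOP, 4.11 to 14.1 CPM in wild-type vehicle and 15.5 to 20.4 CPM in wild-type TCPOBOP livers. The interaction was lower for Cdkn1a (-2.91 ± 0.66, adjusted p = 0.0112), Cdkn2c (-1.88 ± 0.35, adjusted p = 0.00291), Chek1 (-3.84 ± 0.78, adjusted p = 0.00514) and Pkmyt1 (-3.08 ± 0.85, adjusted p = 0.0328). Pkmyt1 lost it without replicate 4 of wild-type vehicle, replicates 2, 3 or 4 of wild-type TCPOBOP, replicates 1, 3 or 4 of humanized vehicle, or replicates 2 or 3 of humanized TCPOBOP.

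**Figure D5:**
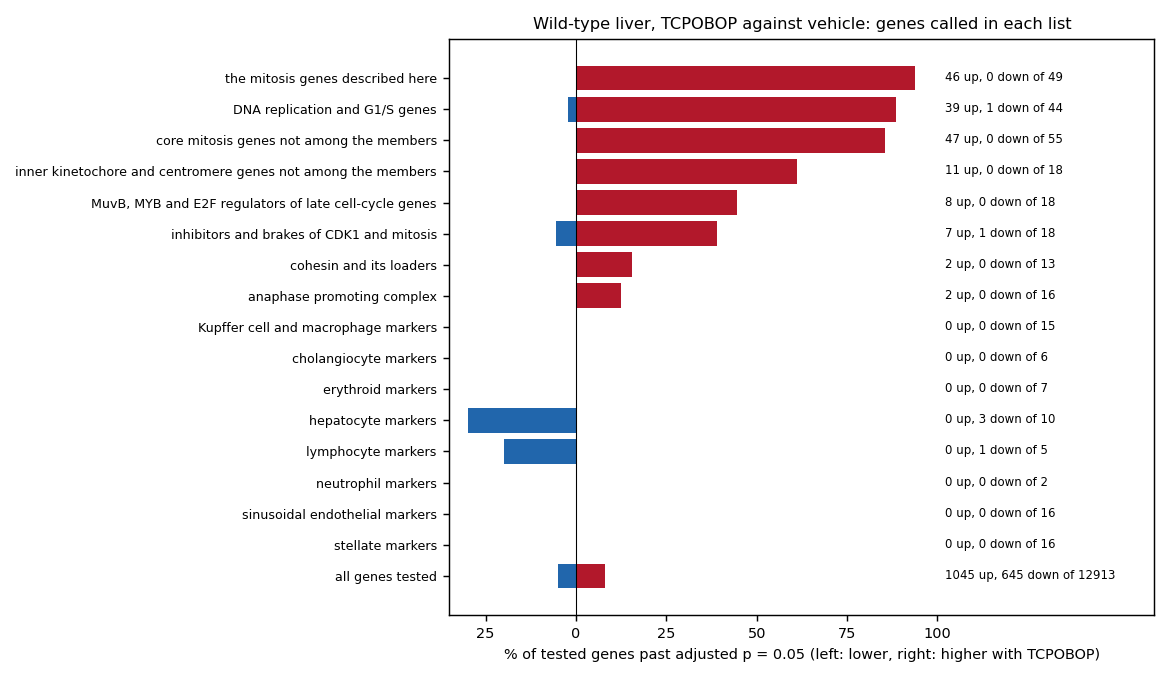
Share of the tested genes of each list that passed an adjusted p of 0.05 in wild-type liver, TCPOBOP against vehicle, with higher genes in red to the right and lower genes in blue to the left of 0, and the counts at the right. The 50 genes described here have 46 of 49 higher, against 1045 of 12913 among all genes tested, and the cohesin and anaphase promoting complex lists have 2 each.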

How the data were processed

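Poly(A) RNA of 16 livers was sequenced, with 1 library per mouse. The authors deposited whole-number counts for 40458 RefSeq transcript accessions, and STAR, DESeq2 and mm10 are named per the submitters' processing notes. For the counting program, the strandedness and the handling of reads with several positions, the sources used here give nothing. Of counts of 20 or more, 74.9% were even, so the values may be halved counts, and floors and 95% counting intervals are approximate and cover counting error only.

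Accessions were joined to symbols through the RefSeq table (40219) or the GENCODE table (125), and 114 stayed without a symbol. Each gene took its accession with the highest mean count, as isoforms share reads. The 16 libraries were fitted together with edgeR 4.0.16 (limma 3.58.1, R 4.3.3), with 1 mean per group, filterByExpr, TMM factors and two-sided quasi-likelihood F tests. The fit kept 12913 genes, with 12 residual degrees of freedom. The biological coefficient of variation, common to all genes, was 0.259. Errors are SE for log2 changes. The labels do not say how mice were housed or processed, so p-values measure the spread between these 16 samples.

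The 50 genes, the other lists and the rule for named genes were chosen with earlier results of these data known. The rule names 22 genes with the value of every library, the 5 largest and 5 smallest changes, all genes past or short of a threshold where few, and up to 4 genes of each other list. Mad2l1, Kif15, Kif20a and Smc4 were added to the genes with every value after the values were seen. Alternatives were RLE and upper-quartile factors, DESeq2 1.42.0, other filters, summed accessions, thinned counts, the compared groups alone, a replicate block and the omission of each library. Same-numbered wild-type vehicle and TCPOBOP libraries deviated together from their group means, with a correlation of 0.337 to 0.754 in the 4 pairs over the 5000 genes used. The highest was that of replicate 2 (0.754). Of the 8 wild-type libraries, 5 correlated best with the library of their own number, so by that measure the numbers pair them only in part. The labels do not say what the numbers mean. The humanized pairs, from -0.354 to 0.184, were not treated as paired.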

Additional observations from a re-analysis of the deposited data

Results flagged for a closer look

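Of 147 groups of 4 libraries examined, for single genes and for the sum of the 50, 19 held a library far from the other 3 by Dixon's ratio at its 95% critical value. Chance alone gives about 1 in 20 for independent and normally spread values. Groups with counts in only 1 library are flagged whatever the count, and many of the genes share the same outlying library. The 19 are therefore not weighed against that share. Wild-type vehicle replicate 2 was the highest of its group for Ccna2 (3.806 CPM), Ccnb1 (0.9514 CPM), Cdk1 (2.474 CPM), Cdc20 (4.091 CPM), Prc1 (2.474 CPM), Cdc25c (0.666 CPM), Hmmr (1.142 CPM), Kif23 (4.472 CPM) and Kif20a (4.377 CPM). Wild-type TCPOBOP replicate 1 was the lowest of its group for Foxm1 (12.04 CPM) and Aurka (8.43 CPM). Humanized vehicle replicate 1 was the highest of its group for Ccnb1 (0.1037 CPM) and Dlgap5 (0.2074 CPM). Humanized TCPOBOP replicate 3 was the highest of its group for Ccnb1 (0.4097 CPM) and Cdc25c (0.1024 CPM). Humanized TCPOBOP replicate 1 was the lowest of its group for Prc1 (0.5906 CPM). Wild-type TCPOBOP replicate 2 was the highest of its group for Cks2 (6.173 CPM). Humanized vehicle replicate 3 was the lowest of its group for Cks2 (3.083 CPM). Wild-type TCPOBOP replicate 2 was the lowest of its group for Kif15 (1.342 CPM). The Ccnb1, Cdc25c and Dlgap5 values of humanized livers rest on a few counts.

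The effect of TCPOBOP differed between the strains, by the interaction test, in 29 genes. The log2 differences, humanized minus wild-type, were Mki67 -3.16, Top2a -2.94, Ccna2 -2.40, Ccnb2 -2.57, Cdk1 -3.62, Cdc20 -5.02, Plk1 -3.74, Aurka -2.95, Ttk -3.84, Mad2l1 -3.38, Cenpa -1.18, Spc24 -1.79, Spc25 -1.57, Birc5 -3.34, Incenp -1.90, Kif20a -3.15, Kif2c -3.10, Prc1 -3.76, Anln -2.30, Ect2 -4.13, Tpx2 -3.00, Nusap1 -3.07, Foxm1 -3.80, Ncapg -3.25, Ncapd2 -2.01, Smc2 -2.63, Smc4 -1.92, Stmn1 -2.55 and Cdca8 -2.85.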

How the results depend on the processing

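In wild-type liver, 46 to 48 of the genes rose under each alternative, and 46 with the replicate block, also in wild-type libraries alone, so the block ended no wild-type call. The extra genes were Kif23 without vehicle replicate 2 and Cdc25c where it entered the test. Over the omissions of 1 library the median log2 change ran from 2.82 to 3.59. In humanized liver 0 genes were called in any alternative, and the median of 0.22 ran from -0.01 to 0.44 over the omissions and was -0.07 in the compared groups alone, where fewer genes were tested. The interaction was lower for 17 (without humanized vehicle replicate 1) to 38 genes over the omissions, 26 with the replicate block, 24 in thinned counts and 35 by DESeq2. The all-group replicate block joins humanized libraries whose numbers do not pair them.

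Under vehicle, 0 to 12 genes were lower and 0 to 2 higher over the omissions. Other settings gave 8 lower with no filter, 2 with the replicate block, 3 in thinned counts, 14 lower and 1 higher by DESeq2, 1 higher with upper-quartile factors, and 1 lower and 1 higher in the compared groups alone, where the median was 0.07 over fewer genes. In the fit of all groups, the 22 genes that pass the filter in the vehicle libraries alone also had a median near 0, of 0.09. For the other settings the cause was not tested.

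Over the omissions, all genes called ran from 1068 to 2200 in the wild-type comparison, 74 to 964 in the humanized, 575 to 1793 in the interaction and 614 to 3430 under vehicle. The humanized count was 215 with the replicate block, 182 in the compared groups alone and 765 by DESeq2, and the interaction count 1481 by DESeq2. With upper-quartile factors 33.8% of humanized calls were higher, against 52.5% with TMM, and 54.8% against 44.3% under vehicle.

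Some changes near 0 turned sign. Over the omissions, Pttg1 ran from -0.11 to 0.23 in wild-type liver, from -0.45 to 0.59 in humanized liver and from -0.50 to 0.53 in the interaction. In humanized liver Mki67 ran from -0.19 to 0.27 (-0.00 with upper-quartile factors), Aurka from -0.30 to 0.09, Smc4 from -0.19 to 0.02 and Kif20a from -0.48 to 0.08. None of these was past the threshold.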
